A study of Mus musculus with 13 samples.

Results

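The genes described here make cholesterol and fatty acids, or govern how much of each a mouse cell makes. They were taken by symbol from the deposited RNA-seq table, and 31 of 31 listed symbols were found among its 30332 gene symbols. The members comprise 18 enzymes of the sterol branch, the branch enzyme Ggps1, 5 regulators of the pathway, the sterol carrier Stard4, the LXR-responsive genes Abca1 and Mylip, and 4 genes of the fatty acid branch, Acly, Fasn, Scd1 and Scd2. The rule that picks them uses no measured value, but the list was drawn up with earlier results of these data known.

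The study converted mouse embryonic fibroblasts into neural stem-like cells, and each of its 9 RNA-seq groups was 1 library. All the cells carried a Nestin::GFP transgene, in which Nestin regulatory sequence drives green fluorescent protein, and all were labelled as passage 3. VCR, a mix of valproic acid, which blocks histone deacetylases, CHIR99021, which blocks GSK3 kinases, and RepSox, which blocks the TGF-beta receptor ALK5, was given to embryonic fibroblasts for 1 or 2 days (D1 and D2, unsorted) and for 4 or 8 days (D4 and D8, each sorted into a GFP-positive and a GFP-negative fraction). GF was sorted GFP-positive cells from fibroblasts that had received growth factors without VCR: 2 days of IL6 (50 ng/ml), 4 days of LIF (100 ng/ml) and FGF5 (50 ng/ml) together, and a final culture with bFGF and EGF (20 ng/ml each). NSC was sorted GFP-positive primary neural stem cells, and D0 was the untreated, unsorted fibroblasts. The labels list several media for the VCR step, some with serum and some without, and do not say which one these libraries had, while the GF cells went through a MyeloCult and then a neural basal medium and D0 fibroblasts grew in DMEM with 10% serum. The labels also list different oxygen levels for the VCR step without tying them to these libraries. Treatment, medium, oxygen level, time in culture and sorting therefore cannot be told apart in any comparison with D0. No untreated library was made at the later days.

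Levels are given as CPM, the estimated count of a gene scaled to its library's total. The totals lay between 20104940 (NSC) and 36751356 (D0) estimated counts, and a floor of 3 counts corresponded to between 0.0816 and 0.149 CPM. A difference between 2 libraries is that of log2(CPM + 1), which understates changes of low genes, and genes with 5 CPM or more in either library were called when that difference reached 1 (2-fold) in either direction. Folds are ratios of CPM, with 95% intervals that cover counting error only, and with 1 library per group no p-value or standard deviation can be given. CPM is not corrected for transcript length, so levels are compared between libraries and never between genes. D0 stands in 8 of the 15 comparisons, which are therefore not independent of each other. In bulk RNA, fewer cells of a type and less RNA per cell cannot be told apart.

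Marker lists of 10 genes each differed widely between these libraries, and their part in the results below was not tested. Summed fibroblast markers were at 16258 CPM at D0, 6897 at D1, 6766 at D2, 3509 and 3666 in the GFP-positive fractions of D4 and D8, 6764 and 8396 in the GFP-negative ones, 18738 in GF and 364 in NSC, where Dcn and Lum were at 0. Summed neural stem and progenitor markers reached 927 and 890 CPM in the GFP-positive fractions and 1385 in NSC, but only 168 in GF, against 53.1 or less in every other library. Neural crest and Schwann cell markers stood at 4219 and 4858 CPM in the GFP-positive fractions and at 428 or less elsewhere, so those fractions carried them more strongly than NSC did. Macrophage markers summed to 570 CPM in NSC, with 10 of 10 at 5 CPM or more, to 269 and 159 in the GFP-positive fractions and to 102 or less in the others. Markers of proliferation summed to 3101 CPM in NSC, 936 and 894 in the GFP-positive fractions, 318 and 290 in the GFP-negative ones, 1048 in GF, 1003 at D1, 422 at D2 and 621 at D0, and adipocyte markers to between 56.4 (NSC) and 288 CPM (D0), with Cidec at 0 in 7 of the 9 libraries.

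Cholesterol is built from acetyl-CoA through mevalonate, isoprenoids, squalene and lanosterol. The transcription factors that drive these genes, the SREBPs, are made as membrane proteins and are carried by the escort protein SCAP to the Golgi, where they are cut and released to the nucleus. When sterols are plentiful the INSIG proteins hold SCAP and SREBP back in the endoplasmic reticulum. SREBP-2, from Srebf2, acts mainly on the sterol branch, and SREBP-1c, from Srebf1, mainly on fatty acid synthesis. LXR, a nuclear receptor that binds oxysterols, drives Abca1, Mylip and Srebf1. Growing neural progenitors and myelinating Schwann cells are known for making much of their own cholesterol and fatty acids.

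The promoters of the members are described first, since SREBPs act with partner factors that bind close to the start of transcription. RefSeq promoters on GRCm38.p6 were at hand for 25 of the 31 members, which include 15 of the 18 sterol enzymes and, of the fatty acid genes, Acly and Fasn. In the 250 bases before the start, the CCAAT box of the factor NF-Y (letters CCAAT on either strand, ATTGG in the printed strand when reversed) was found in 14 of the 15 sterol enzymes, against 33.85% of 32851 mouse promoters and 40.65% of the 10385 genes with 5 CPM or more in a library. The GC box of SP1-type factors (GGGCGG) was also in 14 of the 15, against 32.74% of promoters and 63.66% of those genes. An SRE-like word (CACCCCAC) was in Hmgcs1 and Acat2 only, 2 of 15, against 2.575% of promoters and 3.39% of those genes, and an E-box (CACGTG) in 3 of 15, Hsd17b7, Sc5d and Dhcr7, against 6.021% and 9.6%. A gene was counted when any of its listed promoters held the letters. Over all 25 members CCAAT was in 21, being absent from Abca1, Acat2, Acly and Scap, and the GC box was in 22. Pmvk, Ggps1 and Insig2, which were not lower at D1 or D2, also held CCAAT, so it was not particular to members that were lower. These are matches of exact letters, so variants of a site were not counted, and they say nothing of binding. Below are the 250 bases before the start of Hmgcs1, an early enzyme, of Msmo1 and Cyp51, late enzymes lower at D2 and in both D4 fractions, of Insig1, the member with the widest swing, and of Acly as the fatty acid counterpart. Capitals mark CCAAT, CACCCCAC and CACGTG on either strand, and each is written 5′ to 3′ on the strand of its gene.
Hmgcs1, chr13:119690101-119690350, plus strand: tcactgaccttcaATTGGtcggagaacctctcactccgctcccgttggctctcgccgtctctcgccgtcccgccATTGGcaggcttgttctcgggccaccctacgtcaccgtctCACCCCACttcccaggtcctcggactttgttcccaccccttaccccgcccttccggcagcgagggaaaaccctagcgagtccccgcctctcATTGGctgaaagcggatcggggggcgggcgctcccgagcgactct
Msmo1, chr8:64733579-64733828, minus strand: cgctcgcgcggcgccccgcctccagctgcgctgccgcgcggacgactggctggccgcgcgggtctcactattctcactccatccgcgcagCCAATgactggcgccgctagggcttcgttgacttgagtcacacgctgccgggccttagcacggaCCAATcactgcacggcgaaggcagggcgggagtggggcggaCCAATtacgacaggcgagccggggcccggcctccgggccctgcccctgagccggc
Cyp51, chr5:4104698-4104947, minus strand: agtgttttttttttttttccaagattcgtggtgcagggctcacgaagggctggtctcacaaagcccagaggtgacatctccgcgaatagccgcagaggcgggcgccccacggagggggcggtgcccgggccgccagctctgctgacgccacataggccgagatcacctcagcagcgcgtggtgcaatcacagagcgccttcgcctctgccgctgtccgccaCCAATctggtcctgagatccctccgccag
Insig1, chr5:28071162-28071411, plus strand: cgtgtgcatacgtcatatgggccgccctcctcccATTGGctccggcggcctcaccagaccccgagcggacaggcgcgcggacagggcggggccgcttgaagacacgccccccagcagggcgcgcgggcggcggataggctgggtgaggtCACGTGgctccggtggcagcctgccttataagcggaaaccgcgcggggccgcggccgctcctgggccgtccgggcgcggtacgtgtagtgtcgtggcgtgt
Acly, chr11:100528001-100528250, minus strand: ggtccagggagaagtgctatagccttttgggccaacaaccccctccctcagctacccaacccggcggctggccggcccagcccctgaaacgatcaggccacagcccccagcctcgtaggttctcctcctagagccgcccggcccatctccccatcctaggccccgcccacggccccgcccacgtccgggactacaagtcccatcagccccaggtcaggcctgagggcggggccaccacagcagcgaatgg
Hmgcs1 carries CCAAT 3 times and the SRE-like word once, Msmo1 carries CCAAT 3 times on the gene's own strand, Cyp51 once, and Insig1 has CCAAT and the E-box once each. Acly holds none of the 3 words in this window, and Fasn, not printed, holds CCAAT.

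The D1 and D2 libraries give the state of the unsorted culture early in VCR. Of the 18 sterol enzymes 11 were called lower than at D0 at D1 and 12 at D2, 0 were called higher on either day, and the rest lay under the 2-fold mark. Their median difference was -1.36 at D1 and -1.76 at D2, while the median of all genes tested was 0.04 and 0.06. Over all genes tested, 5.92% were called lower and 6.63% higher at D1, and 6.04% lower and 6.74% higher at D2. Among all 31 members, 17 were lower and 0 higher at D1, and 19 were lower and 1 higher at D2.

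Of the enzymes that lead to mevalonate and use it, 4 of 5 were lower on both days. Hmgcs1, which makes HMG-CoA from acetoacetyl-CoA, stood at 173 CPM at D0, 33.4 at D1 and 32.9 at D2, 5.16-fold lower at D1 (95% interval 4.85 to 5.51). Mvk, mevalonate kinase, stood at 52.0 CPM at D0, 15.8 at D1 and 13.8 at D2, and Mvd, the decarboxylase that makes isopentenyl diphosphate, at 49.9, 9.78 and 11.6 CPM on those days. Acat2, the cytosolic thiolase at the head of the pathway, stood at 107, 42.0 and 47.0 CPM. Pmvk, phosphomevalonate kinase, differed from its neighbours, with 27.5 CPM at D0, 27.1 at D1 and 25.9 at D2.

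The widest differences among the enzymes lay in the isoprenoid and squalene steps, for Idi1 at D2 and Fdft1 at D1. Sqle and Lss differed less than Hmgcs1 on both days. Idi1, which interconverts the isoprene units, had 147 CPM at D0, 26.0 at D1 and 20.5 at D2, 7.19-fold lower at D2 (95% interval 6.64 to 7.80). Fdft1, squalene synthase, had 259, 38.0 and 42.6 CPM, 6.80-fold lower at D1 (95% interval 6.42 to 7.22). Fdps, farnesyl diphosphate synthase, had 487, 111 and 75.0 CPM, Sqle, squalene epoxidase, 161, 60.6 and 40.2 CPM, and Lss, lanosterol synthase, 53.3, 19.1 and 19.8 CPM. Ggps1, which draws farnesyl diphosphate away into geranylgeranylation, was not lower: it had 49.1 CPM at D0, 55.3 at D1 and 60.3 at D2.

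After lanosterol the picture was mixed, with 2 of 8 enzymes lower at D1 and 3 at D2. Cyp51, lanosterol demethylase, stood at 221 CPM at D0, 60.3 at D1 and 50.8 at D2, and Msmo1, methylsterol monooxygenase, at 316, 142 and 85.9 CPM. Tm7sf2, a sterol reductase, stood at 12.1, 6.39 and 3.10 CPM and was called at D2 alone. The other late enzymes lay under the 2-fold mark on both days. Hsd17b7 and Nsdhl, which help to remove methyl groups of lanosterol, differed from D0 by -0.06 and -0.74 at D1 and by -0.33 and -0.86 at D2. Ebp, the sterol isomerase, Sc5d, the lathosterol desaturase, and Dhcr7, which makes cholesterol from its last precursor, had differences between -0.34 and -0.57 at D1 and between -0.50 and -0.62 at D2.

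Among the regulators the INSIG genes went opposite ways. Insig1, itself a target of SREBP, had 69.5 CPM at D0, 4.99 at D1 and 3.50 at D2, 13.9-fold lower at D1 (95% interval 11.9 to 16.4) and 19.9-fold lower at D2 (16.5 to 24.2), the widest difference of any member. Insig2 had 69.1 CPM at D0, 128 at D1 and 149 at D2, 2.15-fold higher at D2 (95% interval 2.05 to 2.26). Srebf2 stood at 104, 26.8 and 17.8 CPM, 5.83-fold lower at D2 (95% interval 5.34 to 6.37), and Srebf1 at 47.5, 16.1 and 15.7 CPM. Scap was at 34.2, 31.1 and 41.6 CPM. Stard4, which moves sterol between membranes, was at 32.7 CPM at D0, 14.6 at D1 and 9.01 at D2, a call at D1 that was lost with a pseudocount of 5 (difference -0.94). Abca1, the cholesterol exporter, was at 31.3, 20.1 and 37.4 CPM and Mylip, a ubiquitin ligase that has lipoprotein receptors degraded, at 16.3, 9.77 and 14.3 CPM, neither past 2-fold.

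Of the 4 fatty acid genes 2 were lower at D1 and 3 at D2. Fasn, fatty acid synthase, had 61.2 CPM at D0, 14.6 at D1 and 12.7 at D2, 4.81-fold lower at D2 (95% interval 4.33 to 5.36). Scd2, a desaturase that makes monounsaturated fatty acids, had 462, 110 and 120 CPM, 4.21-fold lower at D1 (4.06 to 4.36). Acly, which makes cytosolic acetyl-CoA for both branches, had 117, 65.4 and 46.6 CPM and passed 2-fold at D2 only. Scd1, the related desaturase, stood apart at 30.1, 38.2 and 39.3 CPM. Set directly against D1, the D2 library had 0 of the 31 members called in either direction, where 1.2% of all genes were higher and 2.79% lower, and Insig1 was under 5 CPM in both.

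Other lipid genes from lists around the pathway were called less uniformly. Aacs, the acetoacetyl-CoA synthetase that feeds the sterol branch, was lower on both days, at 93.6 CPM at D0, 39.0 at D1 and 35.6 at D2. Of 21 further genes of fatty acid and triglyceride synthesis, 7 were lower and 1 higher at D1, Fads3, a member of the desaturase family, standing at 224 CPM at D0, 80.6 at D1 and 67.2 at D2. The gene that was higher was Dgat2, which completes triglycerides, at 4.57, 16.6 and 17.4 CPM. Uptake and trafficking genes had 1 of 11 lower on each day, Lrp1, an endocytic lipoprotein receptor. Of 9 genes of SREBP processing and turnover and 9 of fatty acid oxidation, 0 were called in either direction at D1, and at D2 only Hadhb of the oxidation genes was called, at 223 CPM against 111 CPM at D0. Of 10 LXR and oxysterol genes tested at D2, 2 were higher and 1 lower, and Cyp7b1, which hydroxylates oxysterols, stood at 65.0 CPM against 12.5 CPM at D0.

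**Figure D1:**
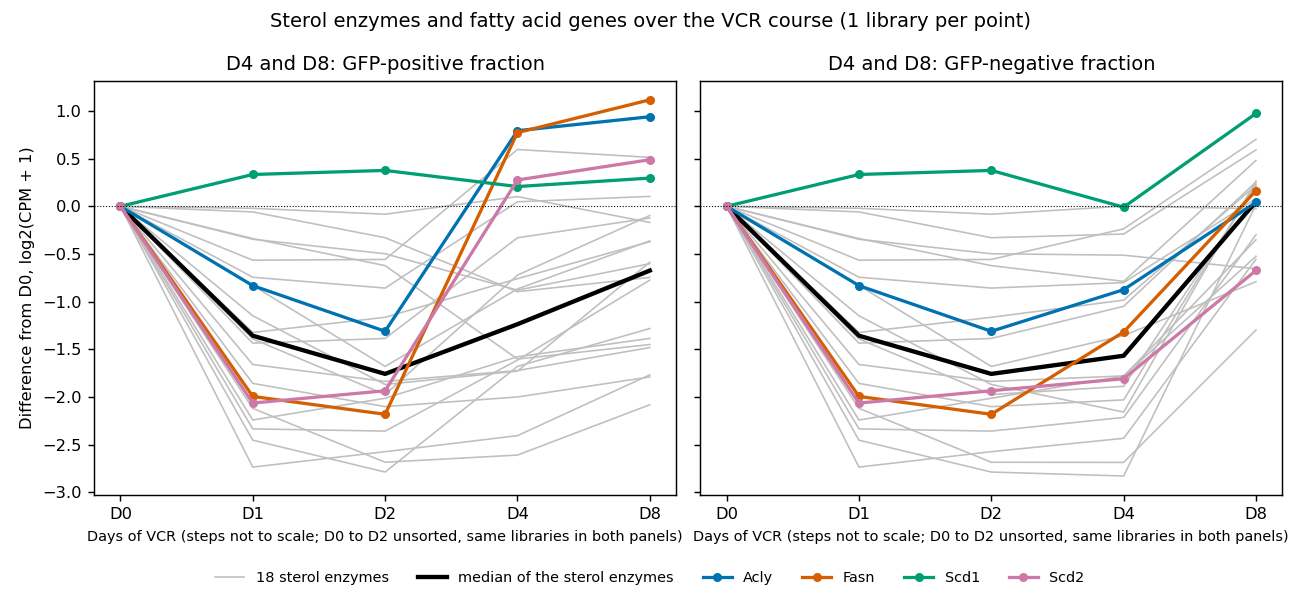
Difference from D0 in log2(CPM + 1) on the vertical axis at each stage of VCR, with the GFP-positive fraction of D4 and D8 on the left and the GFP-negative fraction on the right; grey lines are the 18 sterol enzymes, black their median and colours the 4 fatty acid genes. The black line reaches -1.76 at D2 in both panels and ends at -0.67 in the GFP-positive and 0.05 in the GFP-negative fraction, while Acly, Fasn and Scd2 are above 0 at D4 on the left only.

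At D4 the sorted fractions are set first against D0. In the GFP-positive fraction 9 of the 18 sterol enzymes were lower than at D0 and 0 higher, with a median of -1.24 where the median of all genes was 0.66 and 11.3% of all genes were lower and 38.5% higher. In the GFP-negative fraction 11 were lower and 0 higher, with a median of -1.57 where that of all genes was 0.30 and 5.28% were lower and 11% higher. Median ratio scaling, which takes out most of that shift of the typical gene, gave 14 lower in each fraction. It brought the share of higher genes among all called genes to 49.98% in the GFP-positive and 40.6% in the GFP-negative fraction, against 77.3% and 67.5% by CPM. The 8 sterol enzymes called lower in both fractions were Hmgcs1, Mvk, Mvd, Idi1, Fdps, Fdft1, Cyp51 and Msmo1. Fdps stood at 79.0 CPM in the GFP-positive and 74.9 CPM in the GFP-negative fraction, against 487 CPM at D0, which is 6.16-fold and 6.50-fold lower. Cyp51 stood at 54.5 and 53.4 CPM, against 221 CPM at D0.

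Of the 4 fatty acid genes 3 were higher in the GFP-positive than in the GFP-negative fraction at D4 and 0 lower. Fasn had 105 CPM in the GFP-positive and 24.0 CPM in the GFP-negative fraction, a ratio of 4.39 (95% interval 4.04 to 4.78). Scd2 had 560 CPM against 131 CPM, a ratio of 4.27 (4.12 to 4.42), and Acly 204 CPM against 63.4 CPM, a ratio of 3.21 (3.05 to 3.38). These 3 differences were past 2-fold under each of the scalings tried, whereas Scd1 had 34.9 CPM in the GFP-positive and 29.9 CPM in the GFP-negative fraction. Against D0, where Fasn, Scd2 and Acly had 61.2, 462 and 117 CPM, 0 of the 4 were called in the GFP-positive fraction, and Fasn and Scd2 were lower in the GFP-negative one.

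Of the 18 sterol enzymes 15 had more CPM in the GFP-positive than in the GFP-negative fraction at D4, 2 were called higher and 0 lower, and the median difference was 0.21, below the 0.34 of all genes, of which 25.4% were higher and 11.5% lower. With median ratio scaling the sterol median changed sign to -0.05, both calls were lost, and the share of higher genes among all called was 51.8%, against 68.7% by CPM. The 2 called enzymes were Idi1, at 45.2 CPM in the GFP-positive against 19.8 CPM in the GFP-negative fraction, and Sqle, at 97.0 against 42.7 CPM. Lss, Nsdhl and Dhcr7 followed under the 2-fold mark, at 42.2, 52.9 and 46.1 CPM in the GFP-positive against 25.3, 29.0 and 25.5 CPM in the GFP-negative fraction. Sc5d, Hsd17b7 and Ebp were the 3 with less in the GFP-positive fraction, Sc5d at 66.1 against 117 CPM. Summed CPM of the 18 sterol enzymes was 902 in the GFP-positive and 784 in the GFP-negative fraction, and that of the 4 fatty acid genes 903 and 249. The ratio of the sterol to the fatty acid sum was 0.999 in the GFP-positive and 3.15 in the GFP-negative fraction, against 3.76 at D0; it serves to compare libraries, since each sum is weighted by the most abundant genes.

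Among the regulators, Stard4 and the LXR-responsive genes, Srebf1 was the 1 called between the D4 fractions, at 64.5 CPM in the GFP-positive against 25.2 CPM in the GFP-negative fraction, 2.56-fold higher (95% interval 2.35 to 2.79). Srebf2 was at 58.2 against 29.8 CPM and Insig1 at 12.6 against 5.78 CPM, both just under the 2-fold mark on the log2(CPM + 1) scale. Insig2 went the other way, at 83.4 CPM in the GFP-positive and 153 CPM in the GFP-negative fraction. Abca1 was higher than at D0 in both fractions, with 120 CPM in the GFP-positive and 70.5 CPM in the GFP-negative one, against 31.3 CPM at D0; the call of the GFP-negative fraction was lost with median ratio scaling. Stard4 was at 4.66 CPM in the GFP-positive fraction, its lowest level, and at 9.70 CPM in the GFP-negative one, 7.01-fold (95% interval 5.96 to 8.33) and 3.37-fold lower than at D0. Mylip was lower than at D0 in the GFP-positive fraction, at 7.20 against 16.3 CPM (lost with a pseudocount of 5, difference -0.80), and at 14.8 CPM in the GFP-negative one.

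Around these members, 6 of 11 genes of sterol uptake and trafficking were higher in the GFP-positive than in the GFP-negative fraction at D4 and 1 was lower. Npc1, which lets cholesterol out of late endosomes and lysosomes, stood at 72.2 CPM in the GFP-positive against 28.2 CPM in the GFP-negative fraction, Stard3, a sterol carrier of late endosomes, at 83.4 against 31.3 CPM, and Gramd1a, which carries sterol from the plasma membrane inward, at 85.8 against 30.9 CPM. LXR and oxysterol genes had 1 of 11 higher and 5 lower, Ch25h, which makes an oxysterol, standing at 12.3 against 98.8 CPM and Cyp7b1 at 16.9 against 106 CPM. Of 21 further genes of fatty acid and triglyceride synthesis 6 were higher, near the 25.4% of all genes, and 0 lower, among them Acsl1, which activates fatty acids, at 88.1 against 20.6 CPM.

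Each fraction at D8 was then set against the same fraction at D4. In the GFP-negative fraction 12 of the 18 sterol enzymes were higher at D8 than at D4 and 0 lower, with a median of 1.29, while the median of all genes was 0.03 and 3.68% of all genes were higher and 1.47% lower. All scalings tried gave 12. In the GFP-positive fraction only Msmo1 of the 18 was called, higher at D8, where 1.28% of all genes were higher and 1.49% lower. With median ratio scaling 62.8% of all genes called in the GFP-positive comparison were higher, against 46.1% by CPM, and with TMM scaling 61.6% in the GFP-negative one, against 71.4%. Whether the change differed between the fractions was not tested, since each comparison is of 1 library with 1 library.

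Idi1 was at 149 CPM in the GFP-negative fraction of D8 against 19.8 CPM at D4, 7.50-fold higher (95% interval 6.84 to 8.22), and at 59.9 CPM in the GFP-positive fraction of D8 against 45.2 CPM at D4. Insig1 was at 68.7 CPM in the GFP-negative fraction of D8 against 5.78 CPM at D4, 11.9-fold higher (10.1 to 14.1), and at 36.0 against 12.6 CPM in the GFP-positive one, 2.87-fold higher (2.56 to 3.21). Msmo1 was at 380 against 70.1 CPM in the GFP-negative fraction and at 210 against 94.7 CPM in the GFP-positive one. Insig1 and Msmo1 were the members called in both fractions. Cyp51, at 260 against 53.4 CPM in the GFP-negative fraction, had a ratio of 4.88 (4.61 to 5.17), and in the GFP-positive one it was at 63.2 against 54.5 CPM. Sqle, Hmgcs1 and Fdft1 were at 185, 140 and 176 CPM in the GFP-negative fraction of D8, against 42.7, 36.4 and 47.1 CPM at D4. Srebf2 was at 112 against 29.8 CPM there, 3.77-fold higher (3.48 to 4.08), and Stard4 at 29.7 against 9.70 CPM.

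Of the 31 members 17 were higher at D8 than at D4 in the GFP-negative fraction and 0 lower, Fasn (68.7 against 24.0 CPM) and Scd2 (289 against 131 CPM) among them. Lipid lists outside sterol synthesis hardly moved in that comparison. The isoprenoid branch, SREBP processing, uptake and trafficking, and fatty acid oxidation had 0 genes called in either direction among 11, 9, 11 and 11 tested. Cyp7b1 was the LXR and oxysterol gene called, at 314 against 106 CPM, and Pcyt2, of phospholipid synthesis, the fatty acid and triglyceride gene called, at 79.6 against 38.3 CPM. Summed fibroblast markers were at 8396 CPM in the GFP-negative fraction of D8 and 6764 CPM in that of D4, and summed macrophage markers at 20.7 and 28.3 CPM.

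At D8 6 of the 18 sterol enzymes were lower in the GFP-positive than in the GFP-negative fraction and 0 higher, and 15 had less CPM, with a median of -0.69 where that of all genes was 0.22 and 12.2% of all genes were lower and 20.3% higher. Median ratio and TMM scaling gave 8 lower, and median ratio scaling brought the share of higher genes among all called to 50.03%, against 62.5% by CPM. Cyp51 was at 63.2 CPM in the GFP-positive and 260 CPM in the GFP-negative fraction, 4.12-fold lower (95% interval 3.90 to 4.34). Sc5d was at 73.5 CPM against 283 CPM, 3.85-fold lower (3.66 to 4.04), and Hsd17b7 at 54.3 against 139 CPM, 2.56-fold lower. Idi1, Fdft1 and Mvd were at 59.9, 75.3 and 18.5 CPM in the GFP-positive fraction, against 149, 176 and 38.9 CPM in the GFP-negative one, Mvd being lost with a pseudocount of 5 (difference -0.90). Not all enzymes took part. The 3 with more CPM in the GFP-positive fraction were Tm7sf2 (9.21 against 6.59 CPM), Nsdhl (55.1 against 54.2 CPM) and Ebp (51.4 against 49.5 CPM). Sqle was among those lower but under 2-fold, at 150.2 against 185 CPM.

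Of the fatty acid genes 1 of 4, Scd2, was called higher in the GFP-positive fraction at D8 and 0 lower. It was at 649 CPM in the GFP-positive and 289 CPM in the GFP-negative fraction, 2.24-fold higher, a call lost with median ratio scaling (difference 0.96). Fasn was at 134 against 68.7 CPM and Acly at 226 against 121 CPM, both under 2-fold. Scd1 was at 37.2 CPM in the GFP-positive and 60.0 CPM in the GFP-negative fraction. The sterol sum was 1253 CPM in the GFP-positive and 2360 CPM in the GFP-negative fraction and the fatty acid sum 1045 and 539 CPM, so that their ratio was 1.20 and 4.38. Srebf1 was higher in the GFP-positive fraction, at 73.6 against 34.8 CPM (lost with median ratio scaling, difference 0.86), as was Abca1, at 98.7 against 35.5 CPM. Stard4 was lower, at 7.40 against 29.7 CPM, and so was Mylip, at 5.88 against 20.6 CPM. Of 11 LXR and oxysterol genes 6 were lower in the GFP-positive fraction and 0 higher, led by Cyp7b1 at 21.6 against 314 CPM and Ch25h at 6.48 against 79.9 CPM, while Abca1, itself responsive to LXR, was higher.

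**Figure D2:**
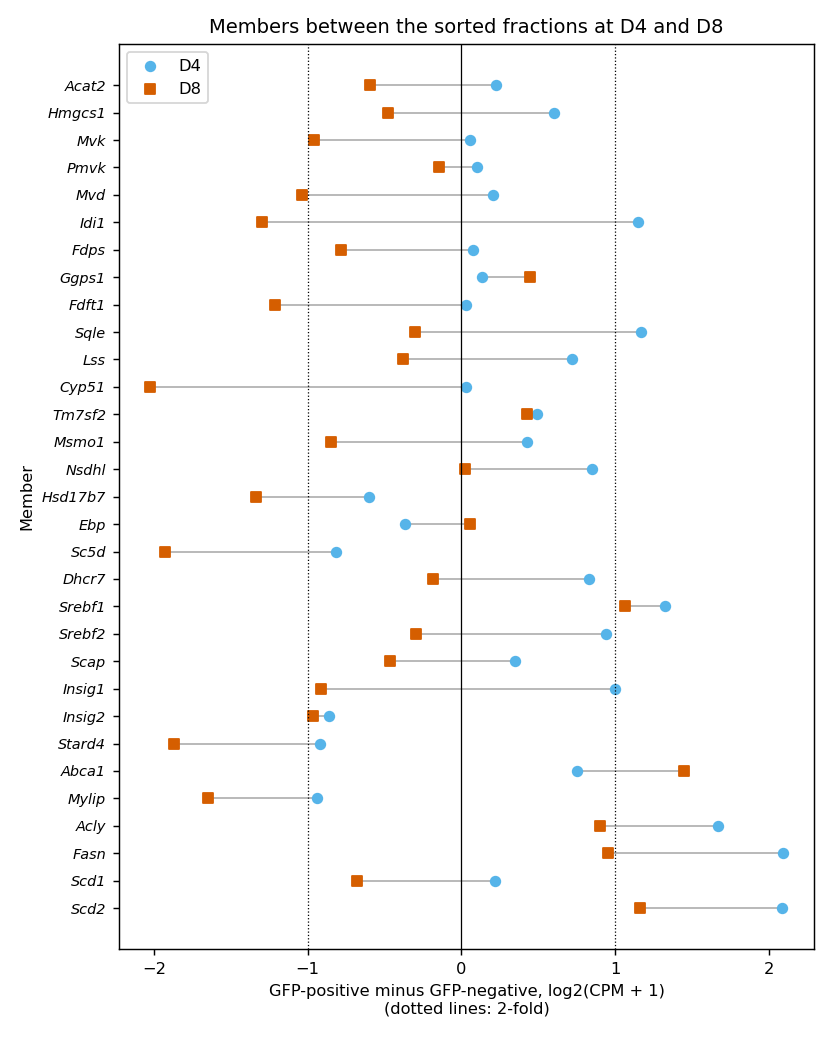
Difference between the GFP-positive and the GFP-negative fraction in log2(CPM + 1) for each of the 31 members on the horizontal axis, at D4 (circles) and D8 (squares); points to the right of 0 are higher in the GFP-positive fraction and dotted lines mark 2-fold. For 15 of 18 sterol enzymes the circle is right of 0 and for 15 of 18 the square is left of it, with Cyp51 at -2.02 at D8, while Acly, Fasn and Scd2 are right of 0 on both days.

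Set against D0, the D8 fractions differed in how many sterol enzymes were still lower. The GFP-positive fraction had 7 of 18 lower and 0 higher (median -0.67, all genes 0.57, 13.4% of them lower and 35.7% higher), and 11 lower with either median ratio or TMM scaling. The GFP-negative fraction had 1 lower, Fdps, and 0 higher (median 0.05, all genes 0.31, 6.12% lower and 16.4% higher), and its median turned to -0.23 with median ratio scaling. Under that scaling the share of higher genes among all called was 50.4% in the GFP-positive and 50.3% in the GFP-negative fraction, against 72.8% in each by CPM. Fdps was at 114 CPM in the GFP-positive and 198 CPM in the GFP-negative fraction, against 487 CPM at D0. Fasn was called higher than at D0 in the GFP-positive fraction, at 134 against 61.2 CPM, but not with 3 of the 3 other scalings. Insig2 (158 CPM) and Scap (139 CPM) were higher in the GFP-negative fraction than at D0, where they had 69.1 and 34.2 CPM; the call of Insig2 was lost with median ratio scaling.

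The growth factor route and primary neural stem cells show the genes without VCR. Both had more Fasn than D0 and less of the late sterol enzymes Msmo1 and Sc5d. In GF 6 of 18 sterol enzymes were lower than at D0 and 0 higher (median -0.35, all genes 0.30, 16% of them lower and 32.1% higher). In NSC 6 were lower and 1 higher (median -0.36, all genes 1.00, 17.4% lower and 49.9% higher), but 13 were lower with TMM scaling, where the median was -1.39 and the share of higher genes among all called was 45.6%, against 74.2% by CPM. For GF that share was 55.3% with TMM scaling, against 66.7% by CPM.

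Fdps, Msmo1 and Sc5d were lower than at D0 in both. Sc5d was at 38.5 CPM in GF and 70.9 CPM in NSC, against 203 CPM at D0, and Msmo1 at 88.1 and 107 CPM, against 316 CPM. Idi1, Fdft1 and Ebp were called in GF alone, at 72.3, 92.0 and 25.9 CPM in GF, 133, 197 and 39.9 CPM in NSC and 147, 259 and 78.5 CPM at D0; with a pseudocount of 5 the calls of Idi1 in GF (difference -0.98) and of Mvd in NSC (-0.94) were lost. Mvk, Mvd and Hsd17b7 were called in NSC alone, at 47.7, 66.6 and 49.2 CPM in GF, 18.5, 23.6 and 39.1 CPM in NSC and 52.0, 49.9 and 91.8 CPM at D0. Acat2 was the enzyme higher in NSC, at 223 CPM against 107 CPM at D0, a call that median ratio scaling removed.

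Fasn was at 219 CPM in GF and 261 CPM in NSC, against 61.2 CPM at D0, 3.57-fold (95% interval 3.40 to 3.76) and 4.27-fold (4.06 to 4.49) higher. Scd1 divided them: it was at 175 CPM in GF and 10.2 CPM in NSC, against 30.1 CPM at D0, and its ratio of GF to NSC was 17.2 (95% interval 15.0 to 20.0), the widest between these libraries among the members. Scd2 was at 761 CPM in GF and 758 CPM in NSC, and Acly at 186 and 304 CPM. The ratio of the sterol to the fatty acid sum was 1.08 in GF and 1.31 in NSC, near the 0.999 and 1.20 of the GFP-positive fractions of D4 and D8 and below the 3.15 to 4.38 of the GFP-negative fractions, D0, D1 and D2. All 4 libraries with the lower ratio were sorted as GFP-positive.

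Srebf1 was at 148 CPM in GF and 51.9 CPM in NSC, against 47.5 CPM at D0, and Srebf2 at 253 and 227 CPM, against 104 CPM at D0. The call of Srebf2 in NSC was lost with median ratio scaling (difference 0.58) and with TMM scaling (0.08). Mylip reached its highest level in GF, at 61.5 CPM, 3.77-fold above D0 (95% interval 3.43 to 4.17). Of the wider lists, uptake and trafficking genes had 7 of 11 higher than at D0 in GF and 0 lower, Lrp1 standing at 2510 CPM against 372 CPM. In NSC 13 of 25 further fatty acid and triglyceride genes were higher than at D0 and 6 lower, shares close to the 49.9% and 17.4% of all genes, Lpin1, a phosphatidate phosphatase, standing at 144 CPM against 14.5 CPM. Of 12 LXR and oxysterol genes in NSC 7 were higher and 4 lower, beside the same 49.9% and 17.4%, Pltp, a phospholipid transfer protein, at 2.44 CPM against 103 CPM. The macrophage markers of NSC given above lie beside each of these NSC values, and their part in them was not tested.

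Set directly against NSC, GF had 2 of 18 sterol enzymes higher, Mvk and Mvd, and 1 lower, Fdft1, which was lost with median ratio scaling (median -0.19, all genes -0.67, 21.2% of them higher and 42.4% lower), and the median was 0.25 with median ratio scaling, which gave 3 higher and 0 lower, and 0.60 with TMM scaling, which gave 5 higher and 0 lower. The share of higher genes among all called was 33.3% by CPM and 57.5% with TMM scaling. The GFP-positive fraction of D8 had 5 sterol enzymes lower than NSC, Acat2, Hmgcs1, Idi1, Fdft1 and Cyp51, and 0 higher (median -0.27, all genes -0.36, 33.9% lower and 17.8% higher). With TMM scaling 0 were lower, the median was 0.21 and the share of higher genes was 56.4%, against 34.4% by CPM. Hmgcs1 was at 101 CPM in that fraction and 223 CPM in NSC, and Insig1 at 36.0 and 115 CPM.

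Across all 9 libraries the regulators did not move as a block. Insig1 spanned 3.50 CPM (95% interval 2.89 to 4.20) at D2 to 115 CPM (110 to 120) in NSC, and was lowest in D1, D2 and both D4 fractions, where most sterol enzymes were low too. Insig2 was lowest in NSC (45.7 CPM) and GF (48.0 CPM), then D0 (69.1 CPM) and the GFP-positive fractions (83.4 and 80.5 CPM), and between 128 and 158 CPM in D1, D2 and the GFP-negative fractions. Scap had between 31.1 and 41.6 CPM in D0, D1 and D2. It had between 82.7 and 139 CPM in the other 6 libraries, which were those that had been sorted. By CPM the typical gene was also higher than at D0 in those 6, with medians from 0.30 to 1.00. Abca1 had 20.1 to 37.4 CPM in D0, D1, D2 and the GFP-negative fraction of D8, and 70.5 to 120 CPM in the remaining 5. The calls of Scap and Abca1 against D0 in NSC and in the GFP-negative fraction of D4 were lost with median ratio and TMM scaling.

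**Figure D3:**
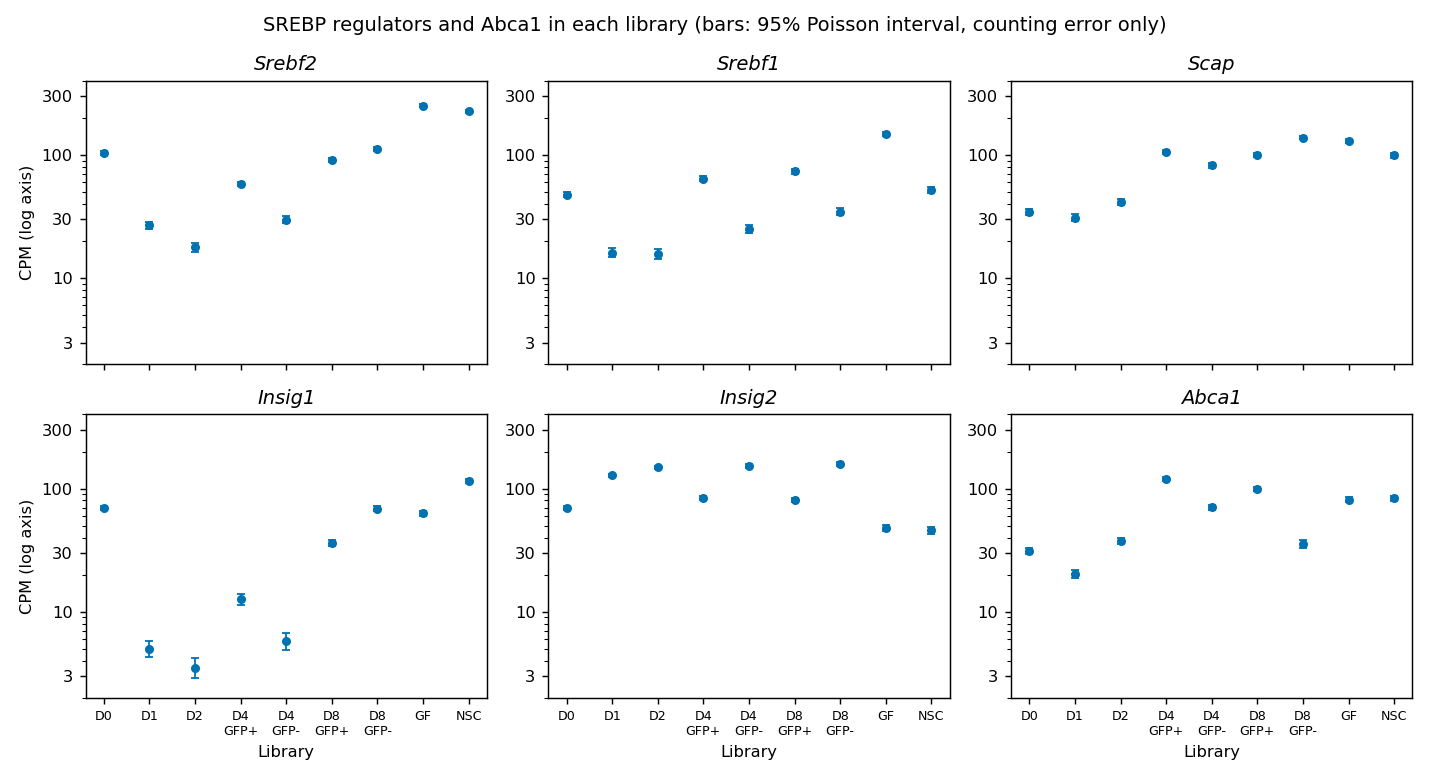
CPM on a log axis in each of the 9 libraries for Srebf2, Srebf1, Scap, Insig1, Insig2 and Abca1, each point being 1 library and its bar the 95% Poisson interval. Insig1 and Insig2 run opposite to each other at D1 and D2, at 4.99 and 3.50 CPM against 128 and 149 CPM, and Scap is at 82.7 CPM or more in each sorted library.

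The level of a gene across the 9 libraries varied least for Pmvk, between 24.4 CPM in the GFP-positive fraction of D8 and 43.0 CPM in GF, for Nsdhl, between 27.8 CPM at D2 and 55.1 CPM in the GFP-positive fraction of D8, and for Ggps1, between 28.4 CPM in GF and 64.5 CPM in the GFP-positive fraction of D4. Of the 18 sterol enzymes 14 had their lowest level in D1, D2 or the GFP-negative fraction of D4, 2 in GF, 1 in NSC and 1 in the GFP-positive fraction of D8. Highest levels were scattered, with 6 in the GFP-negative fraction of D8, 4 each in D0 and NSC, 3 in GF and 1 in the GFP-positive fraction of D8. Some members have near copies whose reads the counting may have divided, so their values are uncertain to that extent. Acat3 was at 0.180 to 7.0 CPM, Scd3 at 0.138 to 8.46 CPM, Scd4 at 0.0894 to 2.24 CPM and Idi2 at 0 to 1.81 CPM, each highest in NSC. Scd2 and Scd1 are neighbours on chromosome 19, at 44293676 to 44306864 and 44394450 to 44407709 in GRCm38.p6.

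**Figure D4:**
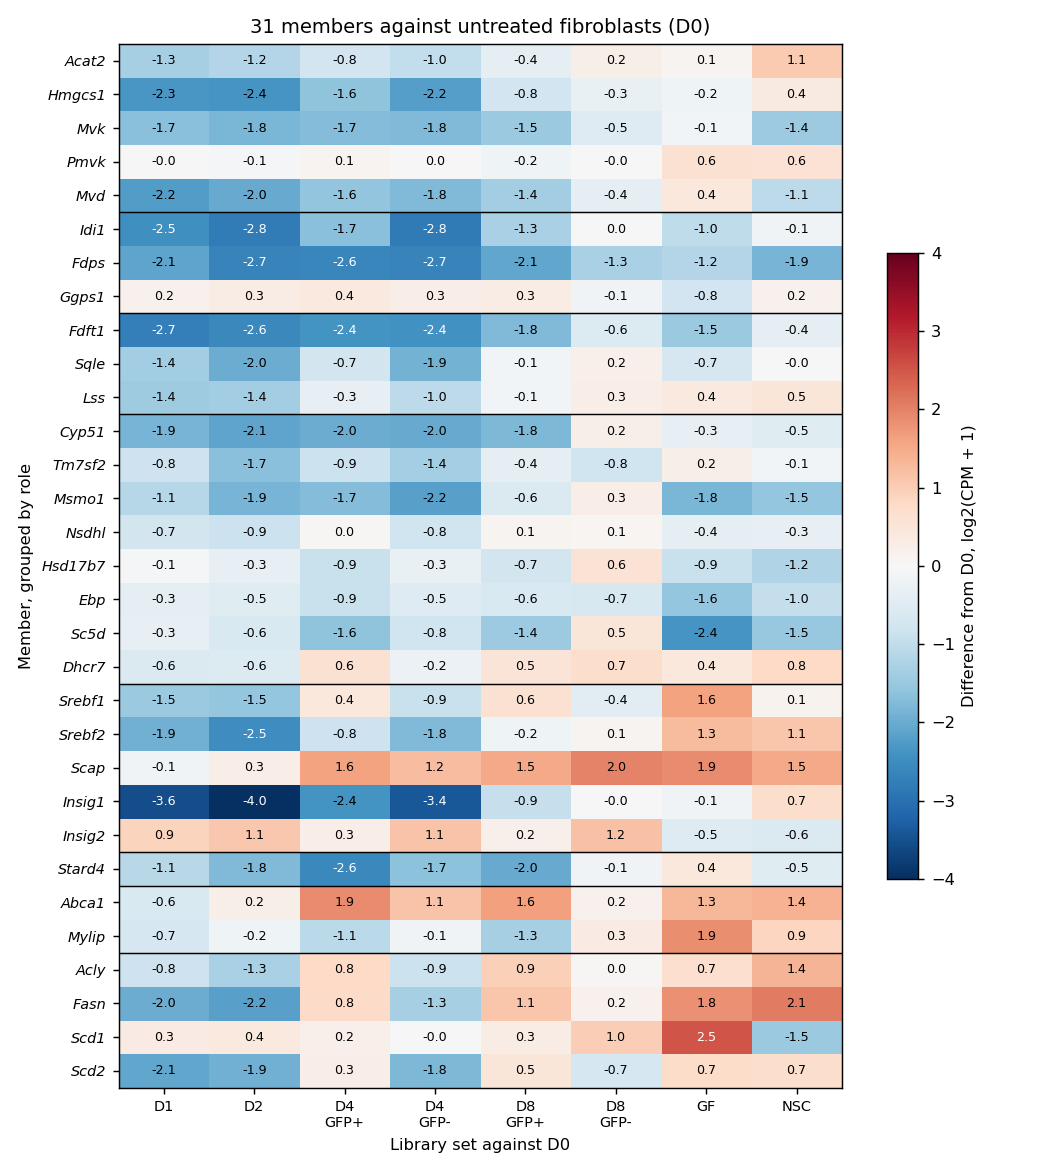
Difference from D0 in log2(CPM + 1) for the 31 members (rows, grouped by role with lines between groups) in 8 libraries (columns); blue is lower and red higher than D0. Most sterol enzyme rows are blue in D1, D2 and both D4 columns, with Pmvk near 0. In the GFP-positive D4 column Nsdhl is also near 0 and Dhcr7 above it. Insig1 is at its lowest at D2 (-3.97), while Scd1 is the reddest cell of the fatty acid rows in GF (2.50) and blue in NSC (-1.48).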

How the data were processed

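The deposited table gives estimated counts per gene symbol, made with kallisto 0.43.1 on GRCm38 per the submitters' processing notes; its title names TPM, but its columns sum to the totals given above, so it was read as estimated counts. Between 35.8% and 43.2% of the values in a library, zeros included, are fractional. The annotation is not given in the sources used here, nor is the way transcripts were summed to genes. From these counts CPM, differences of log2(CPM + 1) with a pseudocount of 1, and CPM ratios were computed (Python 3.11.15, pandas 2.3.3, SciPy 1.17.1). Ratio intervals are exact conditional binomial and level intervals exact Poisson, both on counts rounded to whole numbers. With 1 library per group no test was run. All genes with 5 CPM or more in either library gave the background shares and medians.

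The members and the 7 other lipid lists (89 genes, of which 88 in the table) were chosen with earlier results of these data known. All members are accounted for; of each other list, up to 3 called genes with the largest difference per comparison could be named, and 1 that the rule would name is not reported here. Groups came from the labels' titles. Other settings were pseudocounts of 0.1 and 5, median ratio scaling over 8290 genes, TMM scaling (edgeR 4.0.16), rescaling without 390 abundant, mitochondrial and ribosomal protein genes, no filter, 20 CPM, and calls at 1.5-fold and 3-fold. Promoters and positions are RefSeq's. The comparison of related proteins that had been planned was left out. ATAC-seq data (4 samples) were not used here.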

Additional observations from a re-analysis of the deposited data

Results flagged for a closer look

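Differences that point opposite ways in a pair of groups are given here as values, and none of these contrasts between groups was tested, since each rests on 1 library per group. Idi1 differed between the GFP-positive and GFP-negative fractions by 1.149 at D4 and by -1.299 at D8 on the log2(CPM + 1) scale. Fasn differed from D0 by 0.7725 in the GFP-positive and by -1.318 in the GFP-negative fraction of D4. Scd1 differed from D0 by 2.504 in GF and by -1.477 in NSC.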

How the results depend on the processing

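Of 162 calls of members over the 15 comparisons, 0 changed sign under the other scalings. This count says little, since each call was already 2-fold or more and a scaling shifts all genes of a comparison by nearly the same amount. Few calls could therefore have changed sign. Pseudocounts and filters cannot change a sign. Of the recomputed values 1080 kept their call, which those with no filter, at 20 CPM or with a pseudocount of 0.1 do by construction, and 50 fell under 2-fold. These were 21 with TMM scaling, 15 with median ratio scaling, 9 with a pseudocount of 5 and 5 with rescaling without abundant genes. Sterol enzymes lower than at D0 were 14 rather than 9 in the GFP-positive fraction of D4 with median ratio scaling, TMM scaling and a 1.5-fold call, and 11 rather than 7 in that of D8 with the same 3 settings, whose median was -1.15 with median ratio and -1.201 with TMM scaling (CPM: -0.67). In NSC they were 13 rather than 6 with TMM scaling (median -1.39), and the fatty acid median against D0 turned to -0.006203. Against NSC the GFP-positive fraction of D8 had 0 rather than 5 lower with TMM scaling. A 3-fold call left 7 of 11 lower at D1, 3 of 7 in the GFP-positive fraction of D8, 2 of 6 in GF, 1 of 6 in NSC, 0 of 5 in the GFP-positive fraction of D8 against NSC, and 6 of 12 higher at D8 against D4 in the GFP-negative fraction. Between the D8 fractions 10 were lower at 1.5-fold and 2 at 3-fold, rather than 6. The cause was not tested. No paired analysis was possible because each group holds 1 library, so any 2 groups share fewer than 2 replicate numbers. Depth does not limit these members, all above the floor in every library, but the spread between separate libraries is unknown.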
